A study of Mus musculus with 3 samples.

Results

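The potassium channel genes of the mouse α-cell line αTC1-6 were followed across 3 RNA sequencing libraries. They were taken as the protein-coding genes whose GRCm38 symbol starts with Kcn, together with Abcc8 and Abcc9, and came to 96 of the 52948 gene IDs in the files. All of the groups were αTC1-6 cells, a line from a glucagon-producing islet tumour, infected with an adenovirus for 16 h. As control the virus carried β-galactosidase (β-Gal), and in the other groups NIK or NIK(KA). Map3k14 encodes NIK, the kinase that activates the non-canonical NF-κB pathway. The labels do not explain NIK(KA), which is known elsewhere as a mutant of the kinase site. Each group held 1 library of 1 tumour-derived line, with the protein supplied in excess by a virus, so every difference is one between single libraries and none has a replicate check or a p-value.

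Potassium channels let potassium leave the cell and so pull the membrane voltage down. Their pore subunits fall into voltage-gated channels, which repolarise the cell after an action potential, inward rectifiers and two-pore-domain channels, which set the resting voltage, and channels opened by calcium or sodium. Accessory subunits change their opening or their number at the surface. In islet cells the ATP-sensitive channel, built from the pore subunit encoded by Kcnj11 and the sulfonylurea receptor encoded by Abcc8, closes as glucose is metabolised and thereby links fuel to electrical activity and hormone release.

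Levels are given as the deposited FPKM, reads scaled to gene length and to the library's total. Wherever 3 values follow each other, they stand in the order β-Gal, NIK, NIK(KA). The totals behind them were 18629668, 15523580 and 16652922 reads. Map3k14 was at 5.35, 8.42 and 12.1 FPKM in the 3 libraries, and so above the control with both kinase viruses. All 10 α-cell markers had a read in at least 1 library, though Gc had only 3 reads, all in NIK(KA). The other 9 had a mean FPKM of at least 1. The summed FPKM of the 10 was 13871, 8063 and 11899. Of the 9 β-cell markers Ins1, Ins2, Pdx1 and Ucn3 had no read, and the list's sum was 102 to 103 FPKM, mostly G6pc2 and Nkx6-1. Sst and Ppy had no read in any library, the δ-cell sum was 1.71 to 3.29, and the 4 leukocyte markers summed to 0.159 to 0.337. The 4 neuron markers, several of which endocrine cells share, were all detected and summed to 126, 91.4 and 118. Each of the 9 heart muscle markers had a read in at least 1 library, though not in every library, and they summed to 43.2, 6.40 and 8.72. Ryr2 made up 8.30, 4.96 and 7.10 of these sums, whereas Myl2 was at 9.57, 0 and 0 FPKM. The liver markers other than Ttr, which is also an α-cell marker, summed to 6.06, 26.7 and 16.4. Serpina1a alone, which has near-identical copies that reads may be split between, stood at 2.20, 23.5 and 1.95 FPKM, and the rest of that list summed to 3.86, 3.17 and 14.5, highest in NIK(KA). In bulk RNA, fewer cells that express a gene and less RNA per cell cannot be told apart.

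Of the 96 potassium channel genes, 72 had a read in at least 1 library, 27 averaged 1 FPKM or more, and 10 reached a mean of 10. Of all 52948 gene IDs, which include non-coding genes, 26584 were detected in at least 1 library. Without Map3k14, 12950 of them averaged 1 FPKM or more. A mean of 1 was thus reached by a minority of the family and of all gene IDs alike. The 24 genes with no read anywhere included Kcnd2, Kcnb2, Kcnq3 and Kcna2, and a count of 0 allows up to 3 reads in a library. Of the 45 detected genes under the mean of 1, 32 had at most 10 reads in each library. At the boundary, Kcna5 lay inside with a mean of 1.08 FPKM, and Abcc9 and Kcnab3 lay outside with 0.988 and 0.971. Summed over the family, FPKM came to 838, 792 and 854. The 5 genes highest on average, led by Abcc8, Kcnj11 and Kcnh2, made up 72.9%, 77.6% and 71.9% of that sum.

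By class, 9 of the 40 voltage-gated pore genes, 4 of 15 inward rectifiers, 6 of 14 two-pore-domain genes, 4 of 8 calcium- or sodium-activated genes, 1 of 2 sulfonylurea receptors and 3 of 17 accessory genes had a mean FPKM of at least 1. Classes were assigned by symbol prefix, and Kcnu1 counts as calcium- or sodium-activated on that ground only. The voltage-gated class took 40.1%, 35.0% and 41.3% of the summed FPKM. Inward rectifiers took 12.5%, 18.0% and 13.1%, and two-pore-domain genes 4.60%, 3.80% and 4.93%. Among subfamilies the Kcnj genes stood at a summed FPKM of 105, 143 and 112, with the NIK library highest. The Kcnh sum was nearly level at 133, 129 and 134, although its members differed in opposite directions, as described below. No Kcne, Kcnf, Kcng, Kcnmb, Kcnrg, Kcns or Kcnv gene reached the mean of 1.

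**Figure D1:**
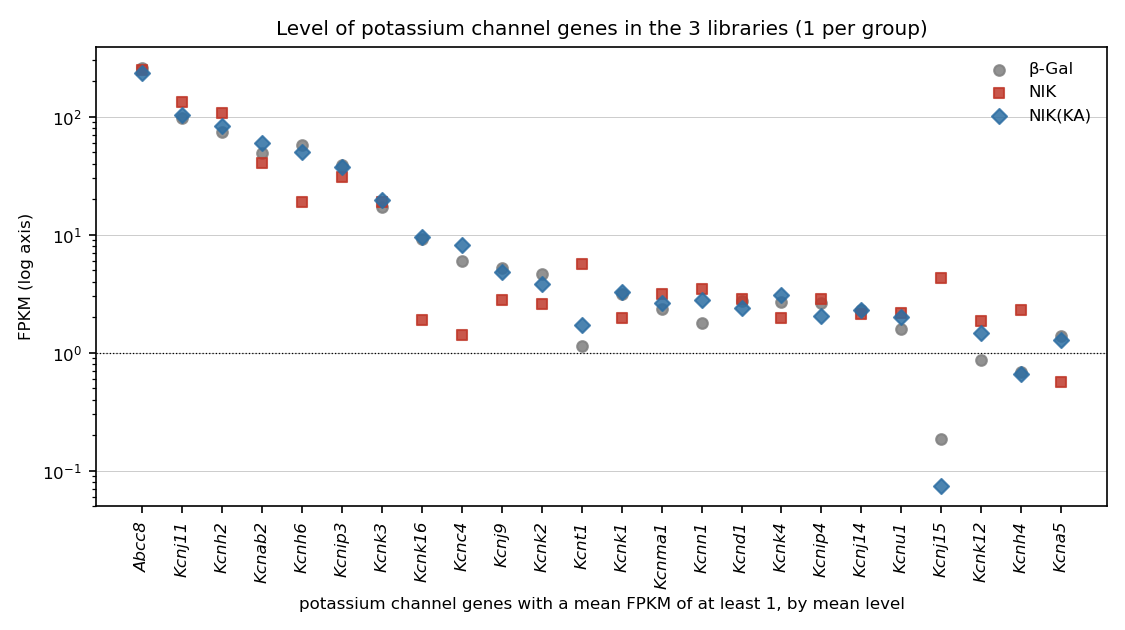
FPKM on a log axis for 24 of the 27 potassium channel genes whose mean FPKM is at least 1, ordered by mean level, with 1 point per library. The dotted line marks 1 FPKM. The NIK squares stand apart from the other points at Kcnh6, Kcnk16, Kcnc4, Kcnt1, Kcnj15 and Kcnh4, while β-Gal and NIK(KA) lie close together at most genes.

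Calls rest on a difference of 1 or more in log2(FPKM + 1), which is 2-fold on that scale, in either direction and among genes that average 1 FPKM or more. Between NIK and β-Gal 5 of the 27 genes were called, or 18.5%, beside 6.63% of all genes. Of these, 2 of the 27 genes were higher, Kcnj15 and Kcnt1, beside 5.14% of all 12950 genes tested. Another 3 were lower, Kcnh6, Kcnc4 and Kcnk16, beside 1.48% of all genes. Between NIK and NIK(KA), which shares the NIK library with the first comparison, these 2 genes were again higher, beside 5.07% of all genes, and the same 3 lower, beside 1.1%, or 6.17% in either direction. Called against both libraries were 4.36% of all genes as higher and 0.664% as lower. Kcnj15 passed the filter only through NIK. With a filter on β-Gal and NIK(KA) alone, added after the data were seen, 4 of 26 genes were called in each comparison. Of all genes 5.31% and 4.88% were called with that filter. The median difference of the 27 genes was -0.06 against β-Gal and -0.04 against NIK(KA), and that of all genes was -0.02 and -0.03. The differences ran from -1.81 to 2.15 against β-Gal. Potassium channel genes thus differed in both directions and their median lay near that of all genes.

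Fold values with an interval in parentheses are ratios of recovered reads, each scaled to its library's total. The exact 95% interval is conditional on the reads of both libraries and covers counting error only. Against β-Gal the interval lay above 1 for 9 of the 27 genes and below 1 for 12, beside 26.7% and 28.2% of all genes. Against NIK(KA) it lay above 1 for 7 and below 1 for 12, beside 24.6% and 30.5%. At least 1.5-fold in NIK against both other libraries, with both intervals excluding 1, were 3 higher genes (Kcnh4, Kcnj15 and Kcnt1), beside 8.39% of all genes. Of these Kcnh4 and Kcnj15 passed the filter only through NIK, the library in which they are high. The 7 lower genes included Kcna5, Kcnc4, Kcnh6, Kcnj9, Kcnk1 and Kcnk16, beside 4.1% of all genes.

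**Figure D2:**
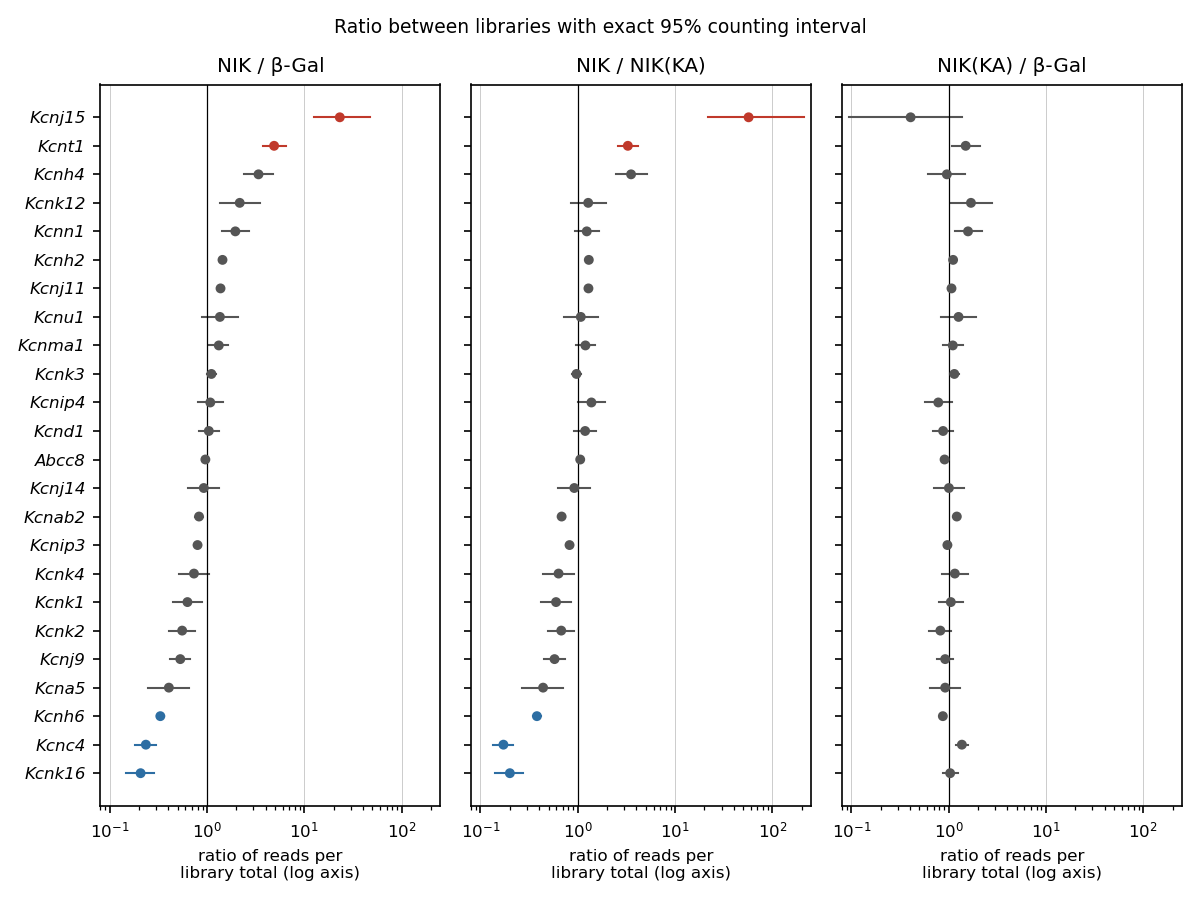
Ratio of reads per library total on a log axis for the same 24 genes, with exact 95% counting intervals as lines, ordered by the NIK to β-Gal ratio. Red points are called higher and blue points lower by the 2-fold rule, and these are Kcnj15, Kcnt1, Kcnh6, Kcnc4 and Kcnk16 in both panels that hold NIK and no gene in the panel of NIK(KA) over β-Gal.

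The 300-base windows from 250 bases before to 50 bases after the RefSeq gene start are shown for Kcnj15 and Kcnh4, which were higher in NIK, and for Kcnc4, Kcnh6 and Kcnk16, which were lower, because they are 4 of the 5 called genes and the gene just short of the rule. Kcnt1, the other called gene, is not shown. They are from RefSeq on GRCm38.p6, read 5′ to 3′ on the strand of the gene. Capitals mark letters of a GC box (GGGCGG) or a TATA box (TATAAA), on either strand.
Kcnj15, chr16:95257308-95257607, plus strand: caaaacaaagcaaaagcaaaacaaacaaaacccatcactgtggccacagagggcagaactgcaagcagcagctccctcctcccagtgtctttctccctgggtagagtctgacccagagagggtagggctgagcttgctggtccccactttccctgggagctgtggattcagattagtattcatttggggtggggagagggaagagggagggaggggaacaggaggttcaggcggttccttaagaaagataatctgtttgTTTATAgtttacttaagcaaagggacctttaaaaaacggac
Kcnh4, chr11:100759729-100760028, minus strand: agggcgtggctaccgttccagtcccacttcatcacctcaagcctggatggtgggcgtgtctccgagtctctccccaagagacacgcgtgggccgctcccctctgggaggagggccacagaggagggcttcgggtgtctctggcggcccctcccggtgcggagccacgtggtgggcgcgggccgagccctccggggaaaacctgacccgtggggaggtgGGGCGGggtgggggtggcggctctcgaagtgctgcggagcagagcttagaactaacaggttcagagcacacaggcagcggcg
Kcnc4, chr3:107458849-107459148, minus strand: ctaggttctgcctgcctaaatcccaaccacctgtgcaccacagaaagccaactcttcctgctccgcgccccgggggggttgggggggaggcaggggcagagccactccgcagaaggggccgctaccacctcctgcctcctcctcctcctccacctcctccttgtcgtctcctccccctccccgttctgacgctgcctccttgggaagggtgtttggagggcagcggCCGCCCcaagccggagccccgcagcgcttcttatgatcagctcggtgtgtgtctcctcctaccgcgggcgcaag
Kcnh6, chr11:106007898-106008197, plus strand: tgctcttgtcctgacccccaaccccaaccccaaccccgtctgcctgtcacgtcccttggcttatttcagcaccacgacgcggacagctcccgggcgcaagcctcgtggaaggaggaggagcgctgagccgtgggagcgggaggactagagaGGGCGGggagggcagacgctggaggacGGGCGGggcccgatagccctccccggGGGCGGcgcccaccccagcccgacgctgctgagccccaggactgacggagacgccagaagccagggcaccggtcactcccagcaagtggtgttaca
Kcnk16, chr14:20269220-20269519, minus strand: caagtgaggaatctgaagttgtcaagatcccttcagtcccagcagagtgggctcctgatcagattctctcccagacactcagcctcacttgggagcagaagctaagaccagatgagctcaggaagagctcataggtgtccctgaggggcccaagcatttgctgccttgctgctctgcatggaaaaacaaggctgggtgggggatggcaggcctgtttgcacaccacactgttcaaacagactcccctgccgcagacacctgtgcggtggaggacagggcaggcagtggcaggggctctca

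The windows of Kcnh6, Kcnh4 and Kcnc4 were rich in G and C, at 69.3%, 68.7% and 66.7%, and held 3, 1 and 1 GC boxes. Those of Kcnk16 and Kcnj15 had 57.0% and 49.7% G and C and no GC box, beside a median of 52.7% over all windows and 58% over the 95 windows listed for 70 members of the family. A GC box was found in 35.7% of the 32851 windows of the whole table and in 48.4% of the family's windows. The only TATA box letters lay after the start of Kcnj15, on the opposite strand, and 13.6% of all windows hold such letters. The κB consensus of NF-κB sites was found in none of the 5 windows and in 8.46% of all windows. Among the family's windows 12 held it, or 12.6%. None of the 5 windows held CCAAT (37.4% of all windows) or the cAMP response element TGACGTCA (1.79%). These are letter matches on both strands in a short window, and describe nothing outside it. For 4 of the 5 windows the 50 bases after the start were found in a GENCODE transcript of the gene. The Kcnk16 window lies wholly beyond the GENCODE gene end, around a RefSeq start further upstream. That of Kcnc4 lies wholly inside the GENCODE gene, which begins further upstream at 107459552, so it does not cover that start. The RefSeq start of Kcnh4 also lies inside its GENCODE gene, which begins at 100759942.

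Among the voltage-gated genes, Kcnc4 (ENSMUSG00000027895, chromosome 3, 107438303 to 107459552, minus strand) encodes a rapidly inactivating channel of the Shaw family, whose fast members end action potentials quickly. It was lowest in the NIK library, at 5.97, 1.41 and 8.17 FPKM, on 408, 80 and 499 reads. It was 4.25-fold below β-Gal in NIK (3.34 to 5.47) and 5.81-fold below NIK(KA) (4.58 to 7.46). NIK(KA) itself lay 1.37-fold above β-Gal (1.20 to 1.56), so β-Gal was the middle library. At a pseudocount of 5 the log2 difference from β-Gal was -0.78 and no longer met the rule. Kcnc1 and Kcnc2 had at most 7 reads in a library.

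Kcnh genes encode the ether-à-go-go family, whose ERG members carry a potassium current that helps to complete repolarisation. Their expressed members differed in opposite directions. Kcnh6 (ENSMUSG00000001901, chromosome 11, 106008124 to 106034549, plus strand), an ERG member, was at 57.1, 18.9 and 49.8 FPKM, on 2601, 718 and 2028 reads. It was 3.02-fold below β-Gal in NIK (2.78 to 3.28) and 2.63-fold below NIK(KA) (2.42 to 2.87). NIK(KA) was 1.15-fold below β-Gal (1.08 to 1.22). Kcnh2, the ERG gene best known from the heart, was higher in NIK, at 74.6, 108 and 82.9 FPKM, which was 1.44-fold above β-Gal (1.37 to 1.52) and 1.30-fold above NIK(KA) (1.23 to 1.37), under the 2-fold rule. Kcnh2 stood 1.31 times as high as Kcnh6 in β-Gal, 5.68 times as high in NIK and 1.66 times as high in NIK(KA), in FPKM. Kcnh4, of the ELK branch, was at 0.684, 2.31 and 0.655 FPKM. Its 138 reads in NIK were 3.38-fold above the 49 of β-Gal (2.42 to 4.78) and 3.52-fold above the 42 of NIK(KA) (2.48 to 5.11). The log2(FPKM + 1) differences were 0.98 and 0.9997, just short of the rule, and the gene passed the filter only through NIK.

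Of the other voltage-gated genes, Kcna5, a delayed rectifier also known from atrial muscle, was at 1.39, 0.563 and 1.28 FPKM on 74, 25 and 61 reads. It was 2.47-fold below β-Gal in NIK (1.55 to 4.05) and 2.27-fold below NIK(KA) (1.41 to 3.78), with log2 differences of -0.61 and -0.54. Kcnd1, an A-type channel gene, was at 2.72, 2.84 and 2.39 FPKM with every interval including 1, and Kcnd3 had 3, 1 and 2 reads. Kcnq1 had 2 reads in β-Gal and 0 in the others.

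Of the 6 two-pore-domain genes with a mean of 1, which encode leak channels, 4 were lowest in the NIK library. Over all classes 13 of the 27 channel genes were lowest in NIK and 12 highest, beside 44% and 37.2% of all genes. Kcnk16 (ENSMUSG00000023387, chromosome 14, 20261376 to 20269199, minus strand) encodes a leak channel of islet endocrine cells. It was at 9.17, 1.90 and 9.51 FPKM, on 260, 45 and 241 reads. It was 4.81-fold below β-Gal in NIK (3.50 to 6.76) and 4.99-fold below NIK(KA) (3.62 to 7.03), whereas NIK(KA) and β-Gal had a ratio of 1.04 (0.867 to 1.24). Its log2 difference of -1.81 against β-Gal was the lowest of the 27 genes. Kcnk1, a weak inward-rectifying leak channel gene, was at 3.12, 1.96 and 3.29 FPKM, 1.59-fold below β-Gal in NIK (1.13 to 2.25) and 1.67-fold below NIK(KA) (1.19 to 2.38). Kcnk2, a channel gated by stretch and lipids, was at 4.65, 2.58 and 3.82 FPKM, 1.80-fold below β-Gal in NIK (1.34 to 2.44) and 1.48-fold below NIK(KA) (1.08 to 2.04).

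Not all leak channel genes stood lower. Kcnk3, which encodes an acid-sensitive leak channel and was the highest of the class, was at 17.1, 18.9 and 19.5 FPKM, and the interval of NIK against β-Gal included 1, at 1.11 (0.994 to 1.24). Kcnk12 was at 0.860, 1.86 and 1.46 FPKM on 31, 56 and 47 reads. It was 2.17-fold above β-Gal in NIK (1.37 to 3.48), but against NIK(KA) the ratio was 1.28 (0.852 to 1.93). Kcnk4, which like Kcnk2 answers to stretch, was at 2.66, 1.95 and 3.08 FPKM, and its exons overlap those of Catsperz on the same strand, at 3.38 to 4.0 FPKM. Its ratio in NIK was 1.36-fold below β-Gal, with an interval that included 1 (0.953 to 1.96), and 1.58-fold below NIK(KA) (1.11 to 2.27).

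Both subunits of the ATP-sensitive channel were the highest genes of the family in mean FPKM and lay within 2-fold in all libraries. Abcc8 (chromosome 7, 46104523 to 46180033) was at 259, 249 and 235 FPKM, and Kcnj11 (chromosome 7, 46093953 to 46100764) at 96.8, 133 and 104. Kcnj11 was 1.38-fold above β-Gal in NIK (1.29 to 1.46), while Abcc8 was 1.04-fold lower (1.01 to 1.07). Against NIK(KA) both were higher in NIK, Kcnj11 1.29-fold (1.21 to 1.37) and Abcc8 1.06-fold (1.03 to 1.09). The ratio of Abcc8 to Kcnj11 FPKM was 2.67, 1.87 and 2.27. These genes are neighbours, 3758 bases apart on the same strand. The homologous pair on chromosome 6, Kcnj8 and Abcc9, lies 16247 bases apart. Abcc9, the sulfonylurea receptor of muscle and vessel channels, had 43, 190 and 43 reads, or 0.40, 2.12 and 0.447 FPKM, and its log2 differences of 1.16 and 1.11 passed 2-fold where no filter was set, beside 3.33% and 3.2% of all detected genes as higher. It was 5.30-fold above β-Gal in NIK (3.79 to 7.57) and 4.74-fold above NIK(KA) (3.39 to 6.76), whereas Kcnj8 had 1 read, in NIK(KA).

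Among the other inward rectifiers, Kcnj15 had the largest difference of the family. Kcnj15 (ENSMUSG00000062609, chromosome 16, 95257558 to 95300260, plus strand) encodes an inward rectifier best known from kidney. It was at 0.184, 4.25 and 0.0748 FPKM, on 11, 212 and 4 reads. It was 23.1-fold above β-Gal in NIK (12.7 to 47.0) and 56.9-fold above NIK(KA) (21.9 to 211), with log2(FPKM + 1) differences of 2.15 and 2.29. Without the NIK library it would have lain under the filter, and at a pseudocount of 5 the differences were 0.84 and 0.87, short of the rule. Kcnj9, a subunit of channels opened by G-protein-coupled receptors such as the somatostatin receptors, was at 5.23, 2.78 and 4.82 FPKM. It was 1.88-fold below β-Gal in NIK (1.49 to 2.38) and 1.73-fold below NIK(KA) (1.37 to 2.21). An antisense gene, Gm36937, overlaps its exons and was at 2.13, 0.901 and 0.700 FPKM. Of its partner subunits, Kcnj3 had 16, 9 and 15 reads, Kcnj6 had 5, 2 and 2, and Kcnj5 had 1 read in β-Gal. Kcnj14 was at 2.12 to 2.31 FPKM in the 3 libraries.

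Of the 4 genes with a mean of 1 that were grouped as calcium- and sodium-activated, each was highest in NIK, beside 37.2% of all genes. For Kcnt1 alone did the intervals exclude 1 against both other libraries. Kcnt1 (ENSMUSG00000058740, chromosome 2, 25863734 to 25918273, plus strand) encodes a channel opened by sodium inside the cell. It was at 1.15, 5.61 and 1.72 FPKM, on 68, 277 and 91 reads. It was 4.89-fold above β-Gal in NIK (3.74 to 6.47) and 3.27-fold above NIK(KA) (2.57 to 4.18), and NIK(KA) was 1.5-fold above β-Gal (1.08 to 2.08). Its log2(FPKM + 1) differences of 1.62 and 1.28 were 0.79 and 0.66, short of the rule, at a pseudocount of 5. Kcnn1, a small-conductance calcium-activated channel gene, was at 1.77, 3.46 and 2.80 FPKM. It was 1.95-fold above β-Gal in NIK (1.44 to 2.67), while against NIK(KA) the ratio of 1.24 had an interval that included 1 (0.935 to 1.63). Kcnma1, the large-conductance calcium-activated channel gene, was at 2.36, 3.12 and 2.61 FPKM, a ratio of 1.32 over β-Gal (1.05 to 1.66) and of 1.20 over NIK(KA), whose interval included 1 (0.952 to 1.51). Kcnu1, known from sperm and placed in this class by its symbol prefix rather than by what opens it, was at 1.59, 2.15 and 2.01 FPKM. Its intervals included 1.

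Accessory subunits showed small differences. Kcnab2, which binds voltage-gated pores from inside the cell, was at 49.1, 40.7 and 59.6 FPKM, 1.21-fold below β-Gal in NIK (1.11 to 1.32) and 1.47-fold below NIK(KA) (1.34 to 1.60). Kcnip3, a calcium-binding partner of A-type channels, was at 38.6, 30.8 and 37.5 FPKM, 1.25-fold below β-Gal in NIK (1.15 to 1.36). Kcnip4 was at 2.63, 2.84 and 2.06 FPKM. Its exons overlap 5730480H06Rik on the opposite strand, at 6.07 to 6.38 FPKM.

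Under a mean FPKM of 1, 5 further potassium channel genes had counting intervals that excluded 1 in NIK against both other libraries, a rule set after the data were seen. The higher ones were Abcc9, Kcnn3 and Kcng4, beside 4.23% of all genes under that level, and 2 were lower, among them Kcnk13, beside 0.716%. Kcnn3, a small-conductance calcium-activated channel gene like Kcnn1, had 4, 35 and 11 reads. Kcng4, a silent voltage-gated subunit gene, had 2, 13 and 4 reads. Kcnk13, of the same leak channel branch as Kcnk12, had 23, 6 and 37 reads.

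**Figure D3:**
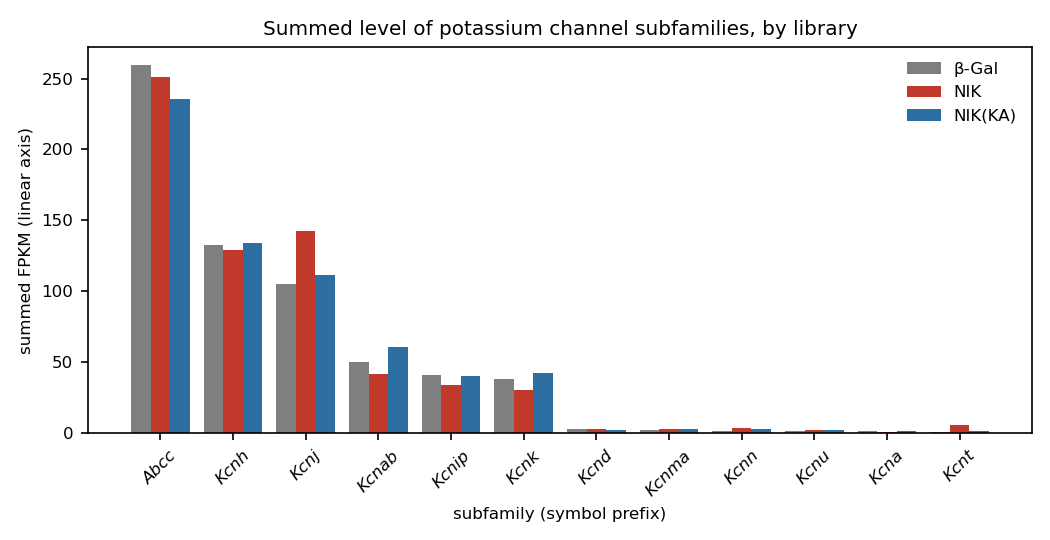
Summed FPKM on a linear axis that starts at 0, for 12 subfamilies that reach 1 FPKM in a library, with 1 bar per library and no error since each group has 1 library. The Kcnj sum is highest and the Kcnk sum lowest in NIK, while Abcc and Kcnh differ little.

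The comparison of NIK(KA) with β-Gal holds no NIK library and shows where the NIK(KA) library differed from the control. None of the 27 genes met the 2-fold rule, beside 0.68% of all genes (0.263% higher and 0.417% lower), and the differences ran from -0.25 for Kcnip4 to 0.46 for Kcnn1. Their median was 0.06 and that of all genes 0.01. The interval lay above 1 for 10 genes and below 1 for 2, Abcc8 and Kcnh6, beside 19.1% and 14.3% of all genes. Kcnn1 and Kcnk12 were 1.58-fold (1.15 to 2.18) and 1.70-fold (1.06 to 2.76) higher than in β-Gal, and both were also higher in NIK than in β-Gal, through the same control library.

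**Figure D4:**
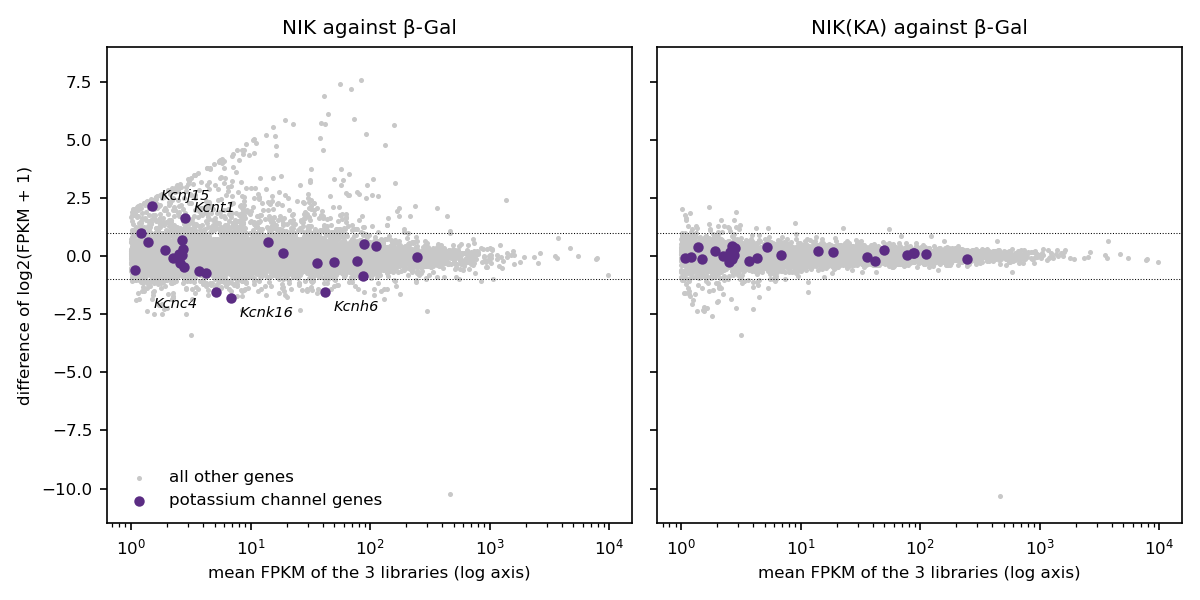
Difference of log2(FPKM + 1) against mean FPKM on a log axis, for NIK and for NIK(KA) against the shared β-Gal library. Grey points are all other genes whose mean FPKM is at least 1, purple points are the 27 potassium channel genes, and dotted lines mark 2-fold. Of the purple points 5 lie past the lines for NIK and none for NIK(KA).

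The 5 called genes were past the rule in NIK against NIK(KA) as well, where the heart muscle sums were 6.40 and 8.72 FPKM, against 43.2 in β-Gal. The α-cell marker sum was lowest in the same library as Kcnh6, Kcnc4 and Kcnk16, at 8063 FPKM in NIK beside 13871 and 11899. Most of that sum was Gcg, the glucagon gene, at 12093, 6955 and 10197. Of the 9 α-cell markers past the filter, 1 was called lower in NIK against each other library, Slc38a5, and 0 higher. The median log2 difference of the 9 was -0.55 in both comparisons. The differences ran from -2.35 to 0.23 against β-Gal and from -2.17 to 0.02 against NIK(KA). Irx2 was nearly level, at 300, 299 and 313 FPKM, and Pou3f4 was highest in NIK, at 27.3, 32.2 and 31.7. Of the liver markers, Serpina1a was called higher in NIK against both libraries, while Alb, at 1.07, 0.43 and 5.01 FPKM, and Apoa2, at 2.66, 2.66 and 7.43, were called lower in NIK against NIK(KA). The part of these shifts in the values of the channel genes was not tested.

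Other genes of potassium handling were taken from 2 lists. Of 20 channel partners outside the Kcn family 14 had a mean FPKM of at least 1. In NIK against β-Gal 1 was higher and 1 lower, with a median difference of -0.11, and against NIK(KA) 1 was higher and 0 lower, with a median of -0.21. The shares of all genes called were 5.14% higher and 1.48% lower against β-Gal, and 5.07% and 1.1% against NIK(KA), so that lists of this size hold too few genes to be read against them. The higher one was Hcn3, a gene of the cation channels opened by hyperpolarisation, at 29.9, 77.4 and 33.3 FPKM, with log2 differences of 1.34 and 1.19. Lgi1, which encodes a secreted protein that modulates voltage-gated channels, was at 25.0, 10.2 and 19.6 FPKM, with differences of -1.21 and -0.87. Of 22 pump and cotransporter genes 9 reached the mean of 1, with 1 higher and 1 lower in NIK against each other library and medians of 0.06 and 0.04. Slc12a5, a potassium-chloride cotransporter of neurons, was at 14.7, 53.6 and 16.3 FPKM, with differences of 1.80 and 1.66. In NIK(KA) against β-Gal 0 genes of either list met the rule, and the medians were 0.09 and 0.05.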

How the data were processed

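RNA was sequenced from 3 libraries, 1 per group, and all 3 deposited columns were used. The deposited values are FPKM, per the file names. HTSeq 0.6.1, TopHat2 and GRCm38 are named per the submitters' processing notes; what each did, and the annotation and strand setting of the counts, was not given in the sources used here. Gene IDs were matched to GENCODE M21, also on GRCm38 (52403 of 52948). Each library's total was read from genes with 1 read (2078 to 2306 genes). It was the commonest whole value of the inverse of FPKM times mean transcript length, after scaling to the units of FPKM. Whole reads followed for 26201 of 26584 detected genes, and 90.8% of the lengths they imply were within 1 base of that mean. Recovered reads served for the intervals, the fold values given with them, the printed read counts and the rules that use ratios of reads or intervals. The intervals cover counting error only, as no molecular identifiers are known.

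Levels were compared as log2(FPKM + 1), which understates differences of low genes, on the whole table without Map3k14. Read recovery, the 2-fold rule and the intervals were run on simulated data as a check of the calculation. The simulated reads varied by counting error only, and most lengths equalled the annotated mean, as the recovery assumes. Variation between libraries was therefore not tested. The members and lists were chosen with earlier results of these data known. Named with values are genes past the rule, the 12 highest, those 1.5-fold in NIK against both others with intervals that exclude 1, and a set with known islet roles; further genes were named after their values were seen, and some genes the rule names are not reported here, although all counts, sums and medians include them. Alternatives changed the pseudocount, filter, scaling or rule. Python 3.11.15, pandas 2.3.3, numpy 2.4.6, scipy 1.17.1 and matplotlib 3.10.9 were used.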

Additional observations from a re-analysis of the deposited data

How the results depend on the processing

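The 3 lower genes in NIK against β-Gal stayed at 2 to 4 under the 11 alternatives, and at 3 or 4 against NIK(KA). The higher genes depended on the settings, since Kcnj15 and Kcnt1 are low. Against β-Gal the count of called genes was 8, with 4 higher, at a pseudocount of 0.1 or with a ratio of reads of at least 2. Under these 2 settings 9.2% and 9.53% of all genes were called. At a pseudocount of 5 the count was 2, with 0 higher, beside 3.17% of all genes. At a mean FPKM of at least 5 it was 3 of 12, with 0 higher, beside 5.09%. Against NIK(KA) it was 3, with 0 higher, at a pseudocount of 5 (2.85% of all genes) or a mean FPKM of at least 5 (4.47%). Equal sums per library, as in TPM, gave 7 called and 4 higher genes in both comparisons, beside 7.94% and 7.45% of all genes called. With a filter on β-Gal and NIK(KA) alone, added after the data were seen, 4 of 26 were called in both, beside 5.31% and 4.88%. Of these 1 was higher, Kcnt1. The median difference became -0.25 and -0.27 at a mean FPKM of at least 5, where that of all genes was -0.02 and -0.04. Against NIK(KA) it became -0.17 with the filter on β-Gal and NIK(KA) alone, beside -0.04 for all genes. A median was counted as moved past 0.1. With the filter over the 2 libraries compared, added for the median after the data were seen, the medians turned positive. They were 0.045 against β-Gal and 0.012 against NIK(KA), beside -0.015 and -0.029 for all genes. NIK(KA) against β-Gal gave 1 lower gene, Kcnj15, by the ratio of reads, beside 2.32% of all genes in either direction. It rested on 4 against 11 reads, and the interval of this 2.46-fold ratio included 1 (0.728 to 10.6). With a mean FPKM of at least 5, 12 genes were counted in place of 27. At a pseudocount of 5, Kcnc4 against β-Gal, and Kcnt1 and Kcnj15 in both comparisons, no longer met the rule. No paired analysis was possible because each group holds 1 library.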

Other observations

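In the order β-Gal, NIK, NIK(KA), of 5 antisense genes named after potassium channels, Kcnq1ot1 had 1117, 673 and 957 reads over its 93092-base gene, or 0.710, 0.514 and 0.681 FPKM, against 2, 0 and 0 reads of Kcnq1. Kcnab3os had 1 read in β-Gal, and the other 3 had none.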
